A study of Populus ussuriensis with 18 samples.

Results

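Stem bases of a poplar, Populus ussuriensis, taken 24 h after cutting were compared with stem bases taken 0.5 h after cutting. The comparison uses 4 of the 18 libraries of a time series, 2 at 24 h and 2 at 0.5 h, and was chosen by the labelled time alone. Both groups carry the same labels apart from the time after cutting, which differs by about 1 day. Wound age, plant age and the time kept as a cutting change together over this day. The times of day of the 2 groups lie 0.5 h apart if all stems were cut at the same time of day, which the labels do not state. Wild-type status, clone and genotype are not labelled beyond the species. The plants were grown in vitro on medium with 20 g/L sucrose at 25 °C under 16 h of light and 8 h of dark, were 2 weeks old when cut, and gave the basal 0.5 cm of the cutting for total RNA. Every group was cut, so neither group is an uncut control. Nothing in the labels states that the 2 libraries of a group stem from different plants or cultures. The p-values below therefore measure the spread between libraries alone, and that spread may be technical.

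Cuttings of poplar form adventitious roots, which are roots that arise from stem tissue and not from an existing root. Wounding is known to switch on defence and hormone signalling within minutes, and the cells that found a root are set aside over the following hours and days. Many plant transcripts also cycle with the time of day, so stem bases collected at different clock times differ for that reason too. A comparison at near-equal clock times asks which loci differ about 1 day later, with little difference in the daily phase.

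The authors deposited a table of transcripts with an FPKM each, a read number scaled to the length of the transcript and to the size of its library. The files pair no identifier with a gene name, and no annotation was used, so loci are described by their values, their course and the properties that the tables hold, and gene roles, positions and cell type markers are not given. Of 36385 listed loci, 24405 had at least 1 FPKM in 2 or more of the 4 compared libraries and were tested, and a further 972 reached 1 FPKM in 1 library only. The FPKM of all transcripts of a locus were summed. Fewer cells that hold a transcript and fewer transcripts per cell cannot be told apart in such bulk samples.

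The libraries were deep and alike within each group. Read totals recovered from the steps of the FPKM values were 29308014 and 29311869 at 24 h and 30311719 and 29167652 at 0.5 h, so that 3 reads on a transcript of 2 kb correspond to 0.0512 FPKM in both 24 h libraries and to 0.0495 and 0.0514 FPKM at 0.5 h. Across tested loci, which do not count as independent replicates, Pearson's r of log2(FPKM + 1) was 0.989 between the 24 h libraries, 0.987 between the 0.5 h libraries and 0.772 to 0.804 across the groups. At least 1 FPKM was reached by 23189 and 23430 loci at 24 h and by 23225 and 23236 loci at 0.5 h, so the number of detectable loci was nearly the same in both groups.

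More than 1 in 2 loci changed between 0.5 h and 24 h, and the direction that prevailed depended on the size of the change. By limma's moderated test with Benjamini-Hochberg adjustment at 0.05, fitted on the 16 libraries after cutting, 14349 of 24405 loci changed (58.8%). Of these, 8488 were higher at 24 h (34.8%) and 5861 lower (24.0%). The median log2 fold change was 0.71 among higher and -0.93 among lower loci, against 0.11 over all loci tested. A change of 2-fold or more was found upwards in 2559 loci and downwards in 2679. At 4-fold, 663 were higher (2.72% of those tested) and 965 lower (3.95%), and at 16-fold 104 were higher and 171 lower. With a pseudocount of 0.1 FPKM in place of 1, which shrinks low loci less, 1175 loci were at least 4-fold higher and 1486 lower. Increases outnumbered decreases among all changes, and decreases outnumbered increases among the large ones.

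Lower loci prevailed among changes of at least 4-fold with each scaling tried, while the excess of higher loci among all changes shrank with some. With quantile normalization, which gives all libraries the same distribution of values, 8118 loci were higher and 6280 lower, and at 4-fold 636 were higher and 1028 lower. All loci together had a median of 0.079 on the log2 scale then, against 0.112 with the authors' scaling. Loci of different transcript length moved differently, as described further on. With levels centred within 20 classes of transcript length, an alternative added after the data were seen, 6975 loci were higher and 6899 lower, and at 4-fold 555 were higher and 1061 lower.

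**Figure D1:**
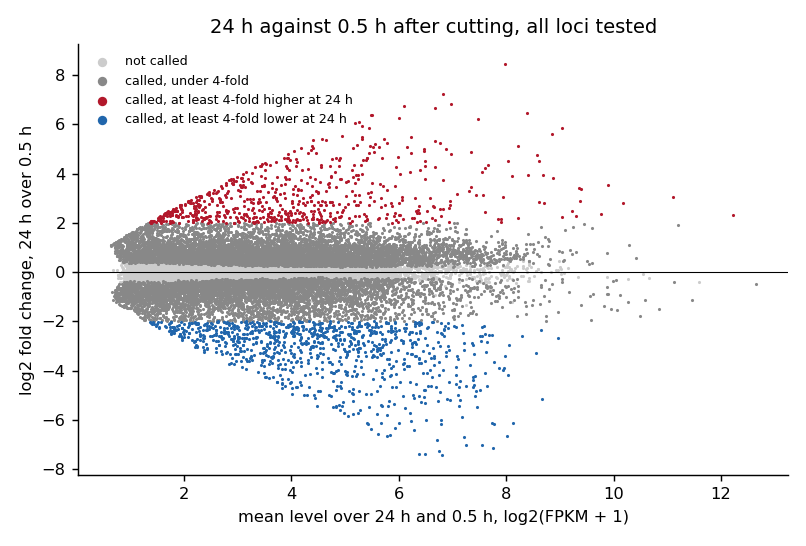
Each point is 1 of 24405 loci, with its mean level over the 4 libraries as log2(FPKM + 1) on the x axis and the log2 fold change of 24 h over 0.5 h on the y axis. Red points are the 663 loci called and at least 4-fold higher at 24 h, blue points the 965 loci called and at least 4-fold lower, and grey points all others. The straight outer edges come from the added 1 FPKM, which limits the fold change of loci with low levels.

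**Figure D2:**
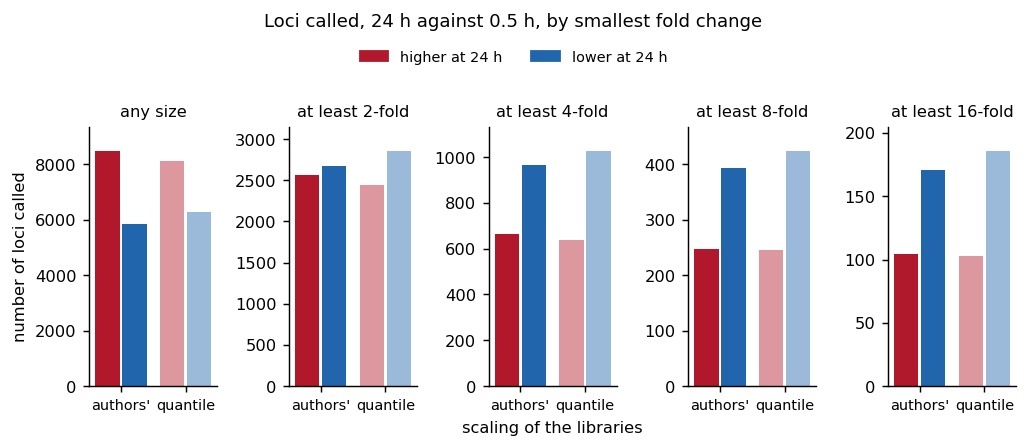
Bars give the number of loci called higher (red) and lower (blue) at 24 h for 5 minimum sizes of the change, with the authors' scaling (dark) and after quantile normalization (light). Each panel has its own axis from 0. Higher loci are the more numerous only in the panel with changes of any size.

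The loci with large changes took up a substantial part of the RNA. The 663 loci at least 4-fold higher held 8.78% and 7.83% of the listed reads at 24 h, against 0.92% and 1.03% at 0.5 h. The 965 loci at least 4-fold lower held 1.21% and 1.23% at 24 h, against 12.93% and 11.58% at 0.5 h. These shares describe sets chosen on the same libraries. The median level of the higher loci was 23.2 FPKM at 24 h and 1.85 FPKM at 0.5 h, and that of the lower loci 3.2 FPKM at 24 h and 36.8 FPKM at 0.5 h. At least 100 FPKM was reached in both 24 h libraries by 94 of the higher loci, and in both 0.5 h libraries by 190 of the lower loci. Changes between below 1 FPKM and 10 FPKM or more were rarer. A level below 1 FPKM is not absence at this depth. At 10 FPKM or more in both 24 h libraries and below 1 FPKM in both 0.5 h libraries were 82 loci, and 109 loci were below 1 FPKM in both 24 h libraries and at 10 FPKM or more in both 0.5 h libraries.

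The largest increase was that of Potri.009G140400, a locus with 1 listed transcript of 1085 bp. It held 551.4 and 455.9 FPKM at 24 h, from 17535 and 14500 reads, against 0.456 and 0.379 FPKM at 0.5 h, from 15 and 12 reads. The groups are far apart. Its log2 fold change was 8.47 (SE 0.34, limma adjusted p 8.89e-11), and with a pseudocount of 0.1 FPKM in place of 1 it was 9.92. Its mean was 0.921 ± 0.115 FPKM after 1 h and 2.85 ± 0.823 FPKM after 2 h (SD, n = 2 each). Far higher means followed, of 957.2 ± 395 FPKM after 6 h, 841.9 ± 166 FPKM after 12 h, 317.9 ± 167 FPKM after 48 h and 21.4 ± 7.99 FPKM after 96 h (SD, n = 2 each). Both 24 h libraries lay below both libraries taken after 6 h and after 12 h. The locus was listed at 0 in both 0 h libraries.

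Potri.013G154400, with 1 listed transcript of 1092 bp, took a slower course. It held 268.0 and 179.7 FPKM at 24 h and 0.363 and 0.534 FPKM at 0.5 h. The log2 fold change was 7.25 (SE 0.31, limma adjusted p 1.94e-10), and 8.66 with a pseudocount of 0.1 FPKM. Its mean was 1.49 ± 0.273 FPKM after 2 h, 11.9 ± 0.932 FPKM after 6 h, 87.0 ± 45.9 FPKM after 12 h, 90.3 ± 37.5 FPKM after 48 h and 13.2 ± 0.231 FPKM after 96 h (SD, n = 2 each). Among the time points, 24 h had the highest mean of this locus, and both libraries at 24 h were above every other library of the series. It too was listed at 0 in both 0 h libraries.

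The largest decreases belonged to loci at a high level 0.5 h after the cut. Potri.011G083900, with 1 listed transcript of 895 bp, was listed at 0 in one 24 h library and at 0.610 FPKM, from 16 reads, in the other, against 195.7 and 245.1 FPKM at 0.5 h, from 5308 and 6399 reads. Its log2 fold change was -7.44 (SE 0.18, limma adjusted p 1.53e-12), and -9.68 with a pseudocount of 0.1 FPKM. The locus went on to 506.8 ± 57.3 FPKM after 1 h and 307.2 ± 17.7 FPKM after 2 h, and held 0.782 ± 0.137 FPKM after 6 h (SD, n = 2 each). At 12, 48 and 96 h it stayed below 1 FPKM in every library.

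Potri.010G077000, with 3 listed transcripts, left its 0.5 h level sooner. It was listed at 0 in one 24 h library and at 0.134 FPKM, from 4 reads, in the other, against 166.7 and 185.8 FPKM at 0.5 h. The log2 fold change was -7.38 (SE 0.19, limma adjusted p 1.72e-12). With a pseudocount of 0.1 FPKM it was -10.17, and for the leading transcript alone -6.15. Its mean was 63.4 ± 19.4 FPKM after 1 h, 2.4 ± 0.167 FPKM after 2 h and 0.0611 ± 0.00167 FPKM after 6 h (SD, n = 2 each). Fitted fold changes of these loci depend on the pseudocount because a 24 h library holds few reads or none.

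**Figure D3:**
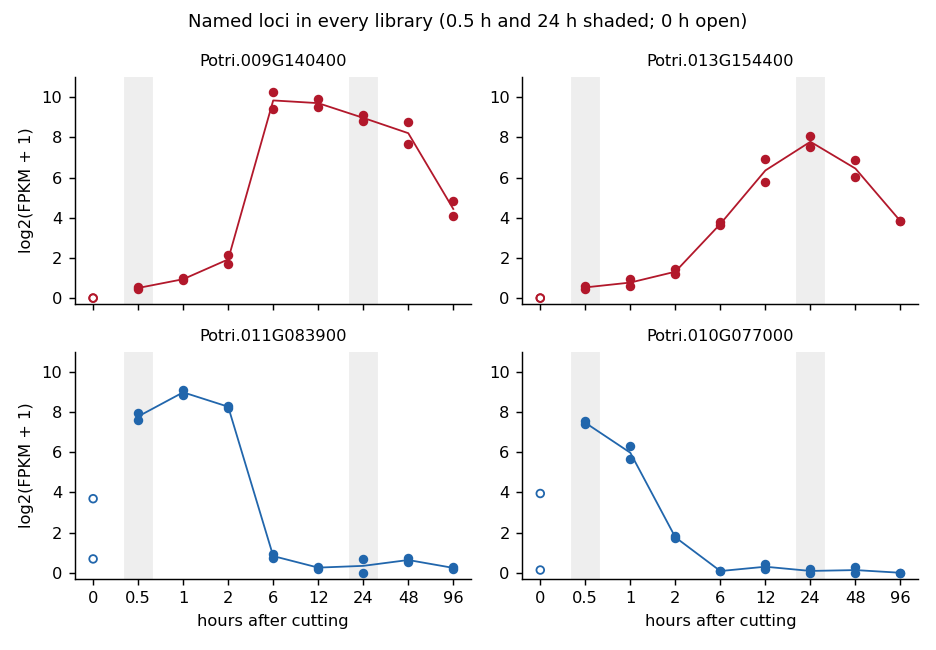
Each panel shows 1 of the 4 named loci as log2(FPKM + 1) in each of the 18 libraries, by hours after cutting. Points are libraries, lines join the means after cutting, and the compared times are shaded. The 0 h libraries, whose tables are of another kind, are drawn as open points. The upper loci climb after 2 h, and the lower loci are high at 0.5 h and 1 h and near 0 from 6 h on.

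The next 10 loci by fold change in each direction were, like the named loci, picked only among called loci whose groups do not overlap. Of all loci tested, 46.2% were higher at 24 h without overlap and 32.5% lower without overlap. The 10 further increases had log2 fold changes from 6.05 to 6.84, with 57.1 to 765 FPKM in the 24 h libraries and 0 to 6.49 FPKM in the 0.5 h libraries. The 10 further decreases had log2 fold changes from -7.37 to -6.60, with 0 to 4.38 FPKM in the 24 h libraries and 92.2 to 534 FPKM in the 0.5 h libraries. Most of them have 1 listed transcript, 8 of the 10 increases and 9 of the 10 decreases. All these loci were picked for the size of this difference, so their adjusted p-values, at most 9.08e-07 and 2.25e-10, are no separate evidence.

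The 24 h libraries differed from each other at the loci that rose most. All 12 loci with the largest increases were higher in 24 h replicate 1 than in replicate 2, by a median of 0.39 on the log2 scale. Of the 663 loci at least 4-fold higher, 500 (75.4%) were higher in replicate 1, against 45.4% of all loci tested. At 0.5 h, replicate 1 was the higher in 6 of the 12 largest decreases and in 634 of the 965 loci at least 4-fold lower (65.7%), against 51% of all loci tested. Without 24 h replicate 1, 635 loci were at least 4-fold higher, and without replicate 2, 713 were.

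Most loci with large changes first passed 50% of the change at 2 h or 6 h after cutting. The libraries at 2, 6 and 12 h also lie at other times of day, and a part of daily cycling in this course was not tested. Of the 965 loci at least 4-fold lower at 24 h, 85 had passed 50% of the log2 difference between 0.5 h and 24 h by 1 h, a further 363 first did so at 2 h and 420 at 6 h. Only 90 first did so at 12 h and 7 at 24 h. More of the 663 loci at least 4-fold higher reached that mark late. Of these, 78 were past it at 1 h, and it was first passed at 2 h by 138, at 6 h by 279, at 12 h by 103 and at 24 h by 65. These times describe means of 2 libraries and were not tested per locus.

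Some loci that ended low stood higher at 1 h than at 0.5 h. At 1 h, 140 of the 965 lower loci were at least 2-fold above their 0.5 h level and 191 at least 2-fold below it. The highest mean after cutting was at 0.5 h for 526 of them, at 1 h for 366 and at 2 h for 68. The lowest mean came after the compared time in many of the 965 and before it in others. It was at 2 h in 23, at 6 h in 135, at 12 h in 70, at 24 h in 134, at 48 h in 172 and at 96 h in 431.

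Loci that ended high did not share 1 peak. The highest mean after cutting fell on 6 h in 131, on 12 h in 71, on 24 h in 134, on 48 h in 208 and on 96 h in 82 of the 663. At 6 h or 12 h, 81 stood at least 2-fold above their 24 h level. At 96 h 539 of the 663 (81.3%) were still past 50% of the difference, and 68 were less than 2-fold above their 0.5 h level or below it. Among the 965 lower loci 939 (97.3%) were past it at 96 h. Relative to 0.5 h, the higher loci had a median log2 level of 2.71 after 24 h, 2.8 after 48 h and 2.13 after 96 h. The lower loci had one of -2.78 after 24 h, -2.83 after 48 h and -3.04 after 96 h.

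**Figure D4:**
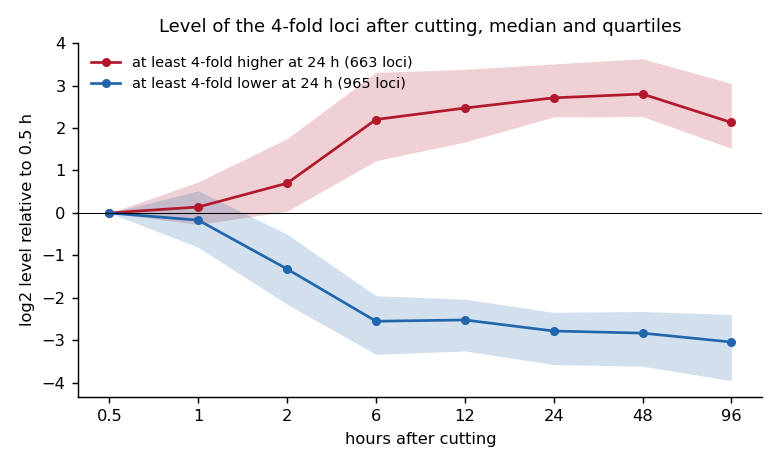
Lines give the median log2 level relative to 0.5 h of the 663 loci at least 4-fold higher (red) and the 965 at least 4-fold lower (blue) at 24 h, by hours after cutting, and bands run from the lower to the upper quartile. The values at 0.5 h are 0 by construction, and those at 24 h follow from how the loci were chosen. The lower loci reach -2.55 by 6 h, and the higher loci 2.2.

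The same loci were examined in 4 libraries whose levels do not enter the difference that chose them, those at 48 h and 1 h, which lie 1 h apart in clock time on the same assumption. In that comparison 11780 of 24503 loci were higher at 48 h (48.1%) and 6393 lower (26.1%) by the same limma test. Of the loci higher at 24 h than at 0.5 h, 8376 were tested there, and 83.7% were higher at 48 h and 3.8% lower. Of the 5601 tested loci that were lower at 24 h than at 0.5 h, 72.8% were lower at 48 h and 6.3% higher. For the loci with changes of at least 4-fold the shares were 93.8% of 660 higher and 96.8% of 955 lower. After quantile normalization 40% of all loci were higher at 48 h and 32.2% lower. Of the loci higher at 24 h, 76.7% were then higher at 48 h, and of those lower at 24 h, 80.2% were lower. The named loci had log2 fold changes of 7.27 (Potri.009G140400), 5.68 (Potri.013G154400), -8.35 (Potri.011G083900) and -5.84 (Potri.010G077000) in these other libraries. The 2 comparisons share no library, but 48 h follows 24 h and 1 h follows 0.5 h in the same course, and the spread of each locus was estimated over the same 16 libraries.

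The 0 h libraries show where the changed loci stood at the time of cutting, with the limit that their tables differ in kind. In loci with several transcripts, the median share of the largest transcript came to 50.1% and 48.9% at 24 h and to 49.5% and 49.4% at 0.5 h, against 92.6% and 92.3% in the 0 h tables. In the counts by the mean of both 0 h libraries, loci listed at 0 in both were counted apart, also where their 0.5 h level was itself near 0. Of the 663 loci at least 4-fold higher at 24 h, 55 were within 2-fold of their 24 h level at 0 h. Another 433 were within 2-fold of their 0.5 h level, and a further 70 were listed at 0 in both 0 h libraries. Levels were compared as log2(FPKM + 1), which draws low levels together. The 663 loci had a median of only 1.85 FPKM at 0.5 h, so being within 2-fold of that level is in part built in. Of the 965 loci at least 4-fold lower, 454 were within 2-fold of their 24 h level at 0 h and 187 within 2-fold of their 0.5 h level. At 0 h, 221 of the 965 were at least 4-fold above their 24 h level. At least 4-fold below their 0.5 h level were 489, and a further 33 were listed at 0 in both 0 h libraries. The 33 also lie at least 4-fold below their 0.5 h level, which follows from how the loci were chosen. These counts use the mean of 0 h libraries that differed from each other at these loci. At least 4-fold above the 24 h level were 184 by 0 h replicate 1 and 305 by replicate 2, and at least 4-fold below the 0.5 h level were 545 by replicate 1 and 343 by replicate 2. Among the lower loci with 1 listed transcript, whose sum cannot shift between transcripts, 357 of 677 were at least 4-fold below their 0.5 h level at 0 h. A further 31 of the 677 were listed at 0 in both 0 h libraries.

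Some loci with near-equal levels at both compared times left them in between. Of 25742 loci with 1 FPKM in 2 or more of the 12 libraries from 0.5 h to 24 h, 15542 had means within 1.5-fold at 24 h and 0.5 h. Folds here are taken on means of log2(FPKM + 1), so loci of low level count as near-equal more readily. A locus with a mean below 1 FPKM at either time cannot stand 2-fold below both levels. At 2 h, 597 of the 15542 were at least 2-fold above both levels and 1121 at least 2-fold below both. At 12 h, the time point farthest from both in clock time, the numbers were 100 and 80, and at 48 h 34 and 48. At 96 h 302 were above and 127 below. Large excursions of at least 4-fold at 1, 2, 6 or 12 h were found upwards in 171 and downwards in 175 of them, but which direction prevailed depended on the scaling. With quantile normalization the counts were 197 upwards and 137 downwards, with centring on the median 218 and 126, and with a pseudocount of 0.1 FPKM 228 and 439. The 171 loci with an upward excursion were of low level, with a median of 2.13 FPKM at 0.5 h and 1.94 FPKM at 24 h. The excursion was largest at 2 h in 101 of the 171 and in 102 of the 175, and at 12 h in 0 and 1. These counts are descriptions of means, and an excursion and its return were not tested per locus.

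**Figure D5:**
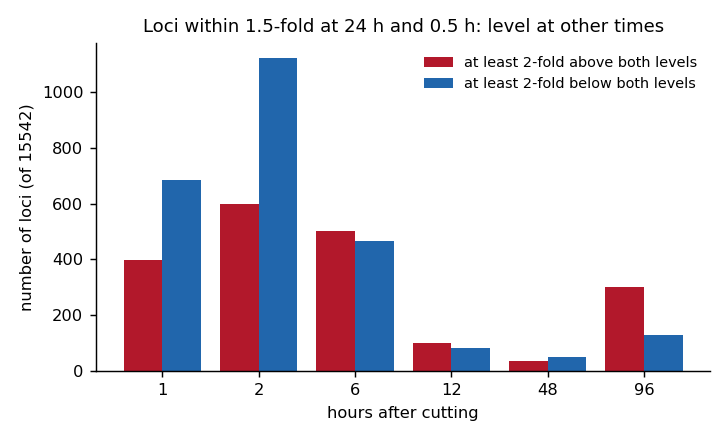
Bars count the loci, of the 15542 with means within 1.5-fold at 24 h and 0.5 h, that stood at least 2-fold above (red) or below (blue) both of these levels at another time after cutting. Folds are taken on means of log2(FPKM + 1). The counts are highest at 2 h, with 597 above and 1121 below, and lowest at 48 h, with 34 above and 48 below.

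The share of higher loci differed between classes of the length of the leading transcript, the one with the highest mean in its locus, but not in 1 direction along the classes. Up to 500 bp, 20.9% of 1148 loci were higher at 24 h and 24% lower. This shortest class also had the lowest median level, 2.83 FPKM, against 6.83 FPKM in the next class and 8.58 FPKM in the longest. Length and level were not separated here. Of 3750 loci with a leading transcript over 500 and up to 1000 bp, 40.8% were higher at 24 h and 21.2% lower, and of 2653 loci with one over 3000 bp, 16.7% were higher and 30.9% lower. Changes of at least 4-fold were found upwards in 4.91% and downwards in 5.47% of the class up to 1000 bp, and upwards in 0.302% and downwards in 2.37% of the class over 3000 bp. The difference between the median levels of these 2 classes, the longer minus the shorter, relative to the 0.5 h mean, was -0.446 and -0.311 on the log2 scale at 24 h and 0.154 and -0.154 at 0.5 h. The groups do not overlap in it, but the 0.5 h libraries are 0.308 apart. The same difference was -0.425 and -0.598 at 48 h and -0.047 and -0.111 at 1 h. Whether length itself, the state of the RNA or the library preparation had a part in this was not tested. With levels centred within length classes 30.9% of the shorter class were higher and 27.8% lower, and 25.6% of the longer were higher and 26.3% lower.

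Calls were more frequent among well expressed loci. Over 50 FPKM, 50.0% of 2259 loci were higher and 28.6% lower, and at 2 to 10 FPKM 29.6% of 9814 were higher and 22.0% lower. Decreases of at least 4-fold made up 10.2% of the loci over 50 FPKM and 2.67% of those at 2 to 10 FPKM, a difference that the added 1 FPKM contributes to by construction. Loci with 1 listed transcript were at least 4-fold lower in 5.46% of 12396 cases, and those with 5 or more listed transcripts in 1.5% of 2138. The number before the G of an identifier separated the loci little. Between 27.3% and 38.5% of the loci of each of the 17 numbers were higher, and between 20.7% and 26.9% lower.

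Changes in the shares of transcripts within a locus were rarely called, and the number of calls depended on the settings. Of 12009 loci with 2 or more listed transcripts, 132 (1.10%) changed in the ratio of the leading transcript to the others by limma's test with Benjamini-Hochberg adjustment. The leading transcript held more of its locus at 24 h in 62 and less in 70. Over all these loci the share of the leading transcript in a 24 h library and in a 0.5 h library differed by a median of 2.6 to 2.9 percentage points in either direction, against 2.7 between the 24 h libraries and 2.5 between the 0.5 h libraries. In 16 of the 132 the share moved by at least 20 percentage points, and 3 of these 16 were not called for the level of the locus. The number rests on low values and on each library: it was 18 with a pseudocount of 0.1 FPKM, and 48 and 70 without 24 h replicate 1 or 2 and 55 and 54 without 0.5 h replicate 1 or 2.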

How the data were processed

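Total RNA of the basal ends of cut stems was sequenced in 18 libraries, 2 at each of 9 time points. The authors deposited 1 table per library with transcripts and their FPKM, a unit named in the headers of the 0 h tables. The headers of the later tables give the library title, and their unit is taken from the 0 h headers and from the steps described next. The submitters' processing notes name Bowtie2 2.2.3 and HISAT2 2.1.0 but not what each was used for. Build, annotation and the FPKM tool: not given in the sources used here. Each table lists 65535 transcripts and ends within the identifiers that begin with Potri.017G, so later identifiers were not analysed here.

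Read totals and transcript lengths were recovered from the steps between values. Each of 60197 transcripts with a value in 6 or more of the 16 later libraries had a length between 60 and 17000 bp that gave whole reads within 0.01 reads. With randomly shifted values, 0 of 2000 had one. Totals count single reads. Between 91.3% and 92.3% of each total fell on listed transcripts. Floors from reads cover counting error only.

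FPKM were summed per locus and analysed as log2(sum + 1), which understates the change of low loci. Loci with at least 1 FPKM in 2 or more of the compared libraries were fitted with limma 3.58.1 in R 4.3.3, with 1 mean per time point over the 16 libraries after cutting, an intensity trend and robust variances. Tests were two-sided and Benjamini-Hochberg adjusted over all loci tested. The procedure was tested on simulated data, where 7.07% of calls were false, somewhat above the nominal level, and 54.4% of changes of 1.5-fold were recovered. In the simulation few loci changed and every locus had the same spread beyond counting. The real data differ in this, so these shares need not hold for them. A count model was not the main test because the files hold FPKM, and limma-voom on the recovered reads was an alternative.

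The comparison and the rules were chosen with earlier results of these data known. Named are the 2 loci with the largest change in each direction among the 12 that were called, had 10 FPKM or more in the higher group and did not overlap between groups. The planned gene lists and cell type markers are written as names, could be matched to no identifier and were not analysed here. Near-identical neighbouring loci may share reads, so their separate values are uncertain. The libraries of a compared group shared no FPKM value above 0 for any transcript.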

Additional observations from a re-analysis of the deposited data

How the results depend on the processing

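The 4 named loci kept their direction and their call under every alternative that gave them a value. Of the 14349 loci changed between 24 h and 0.5 h, 13956 were called in the same direction after quantile normalization, 13891 with centring on the median, 13946 with a pseudocount of 0.1, 13038 with the 4 compared libraries only and 14018 with all 18 libraries. Without 1 of the 4 libraries, which leaves 1 library in a group whose spread is then taken from the other time points, the changed loci numbered 11813 to 12921, the higher 7098 to 7621, the lower 4707 to 5491, and those at least 4-fold higher 635 to 713 and lower 930 to 1008. At least 4-fold higher and lower were 1175 and 1486 loci with a pseudocount of 0.1, since the added 1 FPKM shrinks the change of low loci. With limma-voom on recovered reads, which differs in scale, weights and offset at once, they were 1237 and 1568 of 14304 changed; the cause was not tested. With loci of 1 listed transcript, 7233 of 12396 changed, 4009 higher and 3224 lower, and 430 were at least 4-fold higher. With transcripts as deposited, 24399 changed, 14685 higher and 9714 lower, and more units were tested in this case. The changed transcript shares numbered 18 with a pseudocount of 0.1, 49 with the 4 compared libraries only, 45 with all 18, and 48 to 70 without 1 library; the cause was not tested. Near-equal loci at least 4-fold below both levels in between numbered 439 with a pseudocount of 0.1, which reaches loci of low level. The replicate differences did not settle whether the replicate numbers in the titles pair the samples. The correlation of the replicate differences at 24 h and 0.5 h was -0.064, and over the 28 pairs of time points it ran from -0.21 to 0.23. A weak correlation cannot show that the samples were unpaired. With the replicate number as a block, 14278 loci changed. The gene list alternatives could not be run without gene names. Changes near the counting floor of 3 reads cannot be resolved at this depth.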

Other observations

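Loci with large changes were listed beside each other more often than listed loci as a whole stood beside them. Of the 663 loci at least 4-fold higher at 24 h, 104 (15.7%) had a neighbour in the order of the identifiers that was at least 4-fold higher too, while 3.53% of all listed loci stand beside such a locus on either side. Of the 965 loci at least 4-fold lower, 196 (20.3%) had such a neighbour, against 5.09% of all listed loci. The listed loci include loci that were not tested and could not be called, and the share among tested loci alone was not worked out. There were 8 runs of 3 or more consecutive loci among the higher, with 26 loci in all, and 18 runs among the lower, with 58 loci, and the longest run held 4 loci in both directions. Among the 12 largest increases 4 loci formed pairs of direct neighbours. Whether neighbours are near-identical copies that share reads was not tested.

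The 0 h libraries, which the comparison does not use, differed from each other at the loci that fell between 0.5 h and 24 h. Of the 93 tested loci at least 4-fold higher in 0 h replicate 2 than in replicate 1, 84 were among the 965 loci at least 4-fold lower at 24 h, and 78 of these were at least 4-fold below their 0.5 h level at 0 h. None of the 965 was at least 4-fold higher in replicate 1. The median difference of replicate 2 over replicate 1 was 0.66 on the log2 scale for the 965 loci, -0.09 for the 663 loci at least 4-fold higher at 24 h and -0.01 for all loci tested. Potri.011G083900 held 0.612 FPKM in 0 h replicate 1 and 11.9 FPKM in replicate 2, and Potri.010G077000 held 0.0987 and 14.4 FPKM.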
